A study of Homo sapiens with 7 samples.

Results

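LIN28B, IGF2BP1, IGF2BP2, IGF2BP3, HMGA1 and HMGA2 are oncofetal genes: they are active in the embryo, largely shut in adult tissue, and active again in many tumours. The 6 genes were taken by symbol from gene tables of 28517 entries, and each was present in every table. All 6 are known targets of the let-7 microRNAs, which bind 3′ untranslated regions (3′ UTRs) and reduce the stability and translation of the mRNA. LIN28B is an RNA-binding protein that blocks the maturation of let-7 precursors. The IGF2BP proteins bind mRNAs such as IGF2 and MYC and protect them from decay, and the HMGA proteins are small chromatin proteins that bind AT-rich DNA. In neuroblastoma, a childhood tumour of the sympathetic nervous system, LIN28B is known as a driver that raises MYCN protein by holding let-7 down.

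RNA was sequenced from NGP, an established human neuroblastoma line with amplified MYCN, in 7 libraries. The mutated gene, ARID1A, encodes a DNA-binding component of BAF, the human SWI/SNF remodeller of nucleosomes. The groups were ARID1A-/- #1 (2 libraries), ARID1A-/- #2 (2 libraries), ARID1A+/- (1 library) and control NGP cells (2 libraries). All were kept in medium with serum and puromycin and no other agent is named. Where a group has 2 libraries, 1 was prepared with SMARTer Universal Low Input reagents and its later repeat with KAPA mRNA HyperPrep, and the ARID1A+/- library is also KAPA. Each mutant line is a single derivative of NGP, so a difference from control belongs to that line and cannot be told apart from other differences between lines. Nothing in the labels shows that paired libraries are separate cultures, and p-values therefore cover only library-to-library spread, possibly technical. In bulk RNA, fewer cells with a transcript and less of it per cell cannot be told apart.

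Total counts ran from 24445301 to 43644361 per library. ARID1A mRNA had 16.7 and 17.2 RPKM (reads per kilobase, scaled to the library's counted reads) in ARID1A-/- #1, 14.2 and 13.8 RPKM in ARID1A-/- #2 and 19.9 RPKM in ARID1A+/-, against 22.3 and 22 RPKM in control, each with the SMARTer library first. An mRNA level does not show whether protein was made. The adrenergic neuroblastoma genes HAND2, at 276 to 349 RPKM, and GATA3, at 70.8 to 154 RPKM, were high in all 7 libraries. TH, the first enzyme of catecholamine synthesis, was at most 0.456 RPKM anywhere. Pluripotent and germ cells also express LIN28B, but the 4 markers of those cells, POU5F1, NANOG, DPPA4 and DPPA3, summed to at most 0.081 RPKM in any library. Of 7 fibroblast markers, COL1A2 stayed at or below 0.0336 RPKM in every library, while the list summed to 198 and 222 RPKM in ARID1A-/- #1, 48.2 and 43.2 RPKM in ARID1A-/- #2, 85.8 RPKM in ARID1A+/- and 81.6 and 82 RPKM in control. Most of that sum in the ARID1A-/- and control libraries was COL1A1, except in the KAPA library of ARID1A-/- #2, and its members did not move together. COL1A1 had 156 and 171 RPKM in ARID1A-/- #1 and 30.3 and 19.9 RPKM in ARID1A-/- #2, against 60.2 and 62.6 RPKM in control. DCN had 4.44 and 2.21 RPKM in ARID1A-/- #1 and 4.02 and 3.74 RPKM in ARID1A-/- #2, against 0.301 and 0.0326 RPKM in control, and LUM was likewise higher in all 4 ARID1A-/- libraries than in both controls.

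The link among the 6 genes is the let-7 seed, so the sequences are shown first. RefSeq (GRCh38.p14) gives 9 mature forms of the human let-7 family, counting miR-98, and all 9 share bases 2 to 8, which are in capitals here. The forms whose host genes are described with the let-7 host transcripts read:
hsa-let-7a-5p: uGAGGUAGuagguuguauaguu
hsa-let-7b-5p: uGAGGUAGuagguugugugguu
hsa-let-7c-5p: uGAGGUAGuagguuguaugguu
hsa-let-7d-5p: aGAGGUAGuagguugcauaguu
hsa-let-7f-5p: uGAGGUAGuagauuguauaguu
hsa-let-7g-5p: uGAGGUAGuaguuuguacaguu
hsa-miR-98-5p: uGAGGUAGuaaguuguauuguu

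The reverse complement of that seed, CTACCTC, was searched on the sense strand of the annotated 3′ UTR of each gene (GENCODE 29, the principal coding transcript with the longest 3′ UTR). Of 18896 genes, 1624 held at least 1 such match, or 8.59%, and 12 genes held 4 or more, or 0.0635%. LIN28B held 4 matches in 4549 bases, IGF2BP1 held 4 in 6206 bases and HMGA2 held 4 in 3003 bases. IGF2BP2, with 1792 bases, IGF2BP3, with 2153 bases, and HMGA1, with 1347 bases, held 1 match each. Long 3′ UTRs have more room for a match: 93.1% of genes had a shorter one than LIN28B, 96.7% than IGF2BP1 and 84.9% than HMGA2, but 62.2% than HMGA1. A match is a stretch of letters and does not show that let-7 acts there in these cells. The first match of each gene is printed with the match in capitals, so that the genes can be compared base by base around it.
LIN28B (chromosome 6): cggttgcaaagtCTACCTCatgcaagta
IGF2BP1 (chromosome 17): gtgcgaagtaaaCTACCTCaaggtatga
IGF2BP2 (chromosome 3): acacagaagaagCTACCTCaggtgtttt
IGF2BP3 (chromosome 7): atttttactcaaCTACCTCaggtattca
HMGA1 (chromosome 6): tctgttcacaaaCTACCTCtggacagtt
HMGA2 (chromosome 12): aacgttcgatttCTACCTCagcagcagt
In 5 of the 6 windows the match is followed by an A, the base that strengthens let-7 sites in general, and the HMGA1 window is the exception. Over all matches, an A followed 2 of 4 in LIN28B, 3 of 4 in IGF2BP1 and 1 of 4 in HMGA2.

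**Figure D1:**
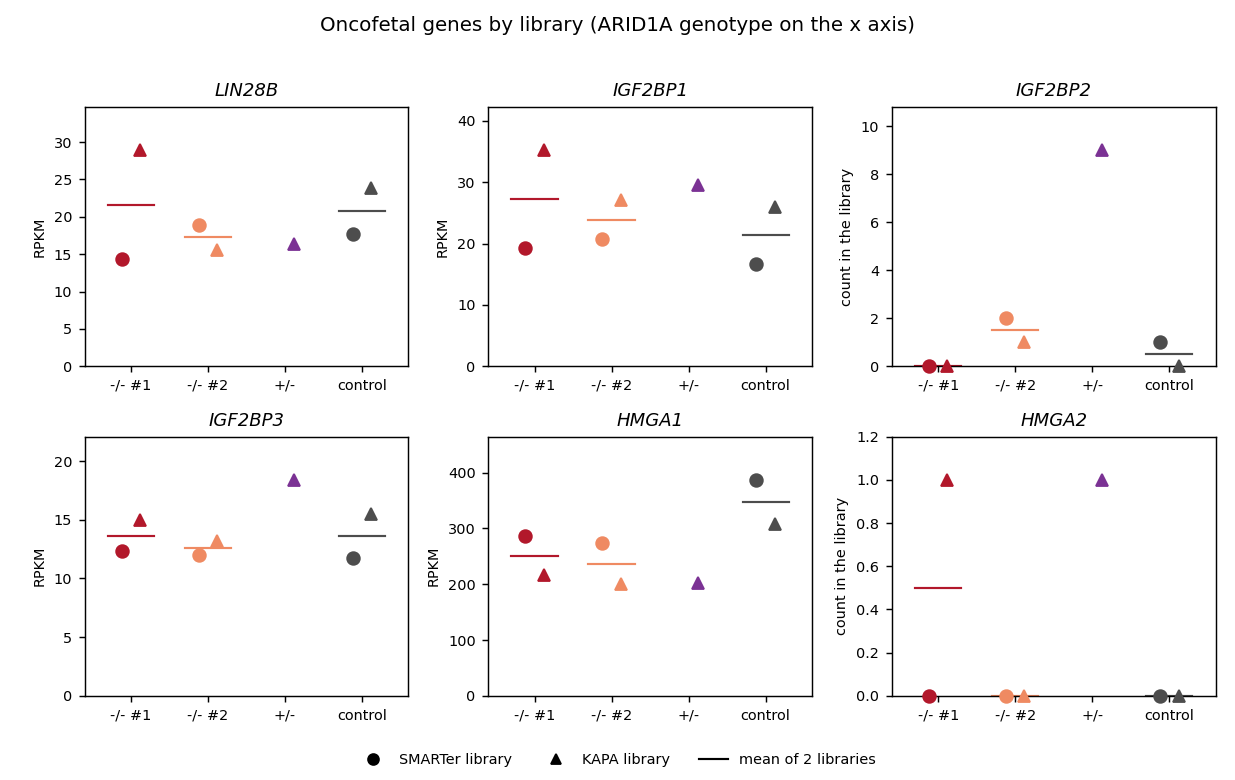
Level of each oncofetal gene in the 7 libraries, in RPKM (LIN28B, IGF2BP1, IGF2BP3, HMGA1) or as the count in the library (IGF2BP2, HMGA2). Circles are SMARTer and triangles KAPA libraries, and a horizontal line is the mean of 2 libraries. HMGA1 lies at 200 to 286 RPKM in the 4 ARID1A-/- libraries and at 308 and 387 RPKM in control, while the groups overlap for LIN28B, IGF2BP1 and IGF2BP3.

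NGP expressed 4 of the 6 genes and left the other 2 nearly silent, in mutant and control lines alike. RPKM is scaled by gene length, so levels can be set roughly side by side between genes, but ratios between genes also differed with the kit. HMGA1 was the most abundant in all 7 libraries, at 200 to 387 RPKM, above 98.8% of the 14711 entries with a mean of at least 0.5 RPKM. IGF2BP1 followed at 16.7 to 35.2 RPKM, LIN28B at 14.3 to 28.9 RPKM and IGF2BP3 at 11.7 to 18.4 RPKM. The HMGA1 level was 6.14 to 23.2 times that of IGF2BP1 in the same library. In control this ratio was 23.2 with SMARTer and 11.8 with KAPA. The ranges of IGF2BP1, LIN28B and IGF2BP3 overlapped, and so did their order: IGF2BP1 was above LIN28B in 6 of 7 libraries, the control SMARTer library being the exception. IGF2BP3 was the lowest of the 4 in 6 of 7 libraries and stood above LIN28B in ARID1A+/-.

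The silent pair comprised IGF2BP2, the family member also known from adult metabolism, and HMGA2, the HMGA form best known from growth control in the embryo. HMGA2 had counts of 0 and 1 in ARID1A-/- #1, 0 and 0 in ARID1A-/- #2, 1 in ARID1A+/- and 0 and 0 in control. A count of 0 in the control libraries allows up to 3 counts, or 0.00464 RPKM in the SMARTer library and 0.00828 RPKM in the KAPA library. IGF2BP2 had counts of 0 and 0 in ARID1A-/- #1, 2 and 1 in ARID1A-/- #2, 9 in ARID1A+/- and 1 and 0 in control. The 9 counts in ARID1A+/- equal 0.0715 RPKM, with an exact 95% Poisson interval of 4.12 to 17.1 counts that covers counting error only. No fold change is given for either gene, because nearly all libraries were at or under the limit of 3 counts. On the HMGA2 chromosome arm, CDK4, a cell cycle kinase amplified in some neuroblastomas, stood at 1173 to 1744 RPKM. The coding genes nearest to HMGA2 in the RefSeq order varied widely in level. LLPH stood at 19.4 to 25.6 RPKM, TMBIM4 at 4.09 to 8.64 RPKM and LEMD3 at 3.3 to 5.74 RPKM, while MSRB3 was at most 0.00673 RPKM.

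The comparison of the ARID1A-/- lines with control takes the mean of the 2 line effects. A call over both lines therefore need not hold in each line. HMGA1 fell, and LIN28B, IGF2BP1 and IGF2BP3 were not called. Of the 4 genes that could be tested, 1 was called, where 14.2% of the 14711 entries were called, 4.64% higher and 9.57% lower. HMGA1 had 286 and 216 RPKM in ARID1A-/- #1 and 273 and 200 RPKM in ARID1A-/- #2, against 387 and 308 RPKM in control, with the SMARTer library first in each pair. Both mutant lines lay below both control libraries with no overlap. The mean change over both lines was a log2 fold change of -0.53 ± 0.10 (SE, n = 4 against 2 libraries), or 0.691 times control (edgeR quasi-likelihood test with the kit as a term, Benjamini-Hochberg adjusted p = 0.019). Of all entries, 7.37% had a smaller p in the same comparison. The HMGA1 decrease was close in size under either kit: the log2 RPKM ratio to control was -0.44 with SMARTer and -0.51 with KAPA in ARID1A-/- #1, and -0.50 with SMARTer and -0.62 with KAPA in ARID1A-/- #2. The call did not hold when a control library was left out (edgeR adjusted p = 0.126 without the SMARTer and 0.164 without the KAPA library) or a library of ARID1A-/- #2 (edgeR adjusted p = 0.105 and 0.115), although the log2 fold change stayed between -0.60 and -0.49.

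Tested alone, ARID1A-/- #2 had HMGA1 at a log2 fold change of -0.60 ± 0.12 (SE, edgeR adjusted p = 0.0227), and 1 of the 4 tested genes was called, against 14.0% of all entries (5.47% higher and 8.52% lower). This call was also lost without either control library (edgeR adjusted p = 0.112 and 0.135) or either library of the line (edgeR adjusted p = 0.209 and 0.243). In ARID1A-/- #1 the HMGA1 change was -0.47 ± 0.12 and just missed the threshold (edgeR adjusted p = 0.0503), so 0 of the 4 genes were called there with edgeR, against 13.0% of all entries (4.75% higher and 8.27% lower). At an unadjusted p under 0.05 edgeR counted 2 in that line, HMGA1 and IGF2BP1. At an adjusted p under 0.05 DESeq2 called 1 and limma called 0. The difference between the 2 lines was not called for HMGA1, with a log2 difference of 0.13 and a 95% interval of -0.15 to 0.42 (edgeR adjusted p = 0.525).

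LIN28B, the let-7 blocker, had 14.3 and 28.9 RPKM in ARID1A-/- #1 and 18.9 and 15.6 RPKM in ARID1A-/- #2, against 17.7 and 23.9 RPKM in control. The groups overlapped, and the highest and the lowest of these 6 values were both from ARID1A-/- #1. Its log2 fold change over both lines was -0.12 ± 0.22 (SE), with a 95% interval of -0.65 to 0.40 (edgeR adjusted p = 0.754). The direction changed between the kits in each line, and in opposite ways in the 2 lines. The log2 RPKM ratio to control was -0.31 with SMARTer and 0.27 with KAPA in ARID1A-/- #1, and 0.10 with SMARTer and -0.62 with KAPA in ARID1A-/- #2. It was the least precisely measured of the 4 tested genes, since an SE of 0.22 compares with 0.10 to 0.12 for the others.

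The 2 expressed IGF2BP genes differed in how they stood. IGF2BP1, which in neuroblastoma lies on the often gained long arm of chromosome 17, had 19.3 and 35.2 RPKM in ARID1A-/- #1 and 20.7 and 27.1 RPKM in ARID1A-/- #2, against 16.7 and 26 RPKM in control. Within each kit both mutant lines were above control, but the groups overlapped across kits. The log2 fold change over both lines was 0.24 ± 0.12 (SE), with a 95% interval of -0.03 to 0.52 (edgeR adjusted p = 0.216). IGF2BP3, which binds and stabilises mRNAs in many carcinomas, had 12.3 and 15 RPKM in ARID1A-/- #1 and 12 and 13.2 RPKM in ARID1A-/- #2, against 11.7 and 15.5 RPKM in control. Its log2 fold change was -0.06 ± 0.10 (SE), with a 95% interval of -0.29 to 0.18 (edgeR adjusted p = 0.754). The ratio of IGF2BP1 to IGF2BP3 RPKM was 1.57 and 2.35 in ARID1A-/- #1 and 1.72 and 2.04 in ARID1A-/- #2, against 1.43 and 1.68 in control.

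Between the mutant lines, ARID1A-/- #1 minus ARID1A-/- #2, 0 of the 4 genes were called by edgeR, DESeq2 or limma, and 0 had an unadjusted edgeR p under 0.05, against 12.8% of all entries called (5.71% higher and 7.10% lower). The widest interval was that of LIN28B, with a log2 difference of 0.28 and a 95% interval of -0.33 to 0.90 (edgeR adjusted p = 0.53).

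**Figure D2:**
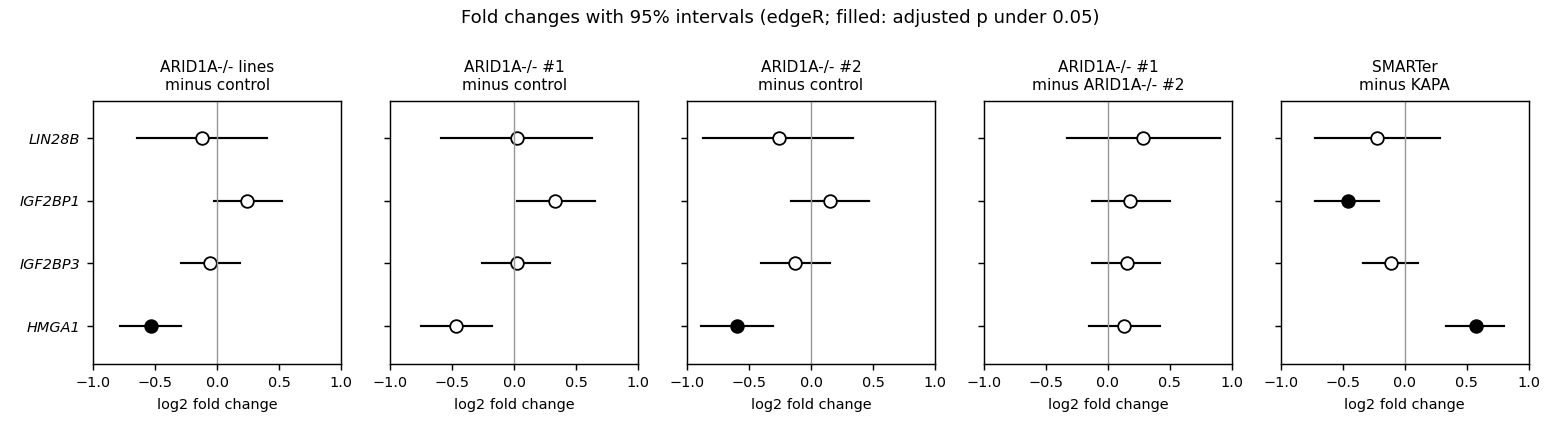
Log2 fold changes (x axis) of the 4 tested genes in 5 comparisons, with 95% intervals as lines. Filled points have an edgeR adjusted p under 0.05: HMGA1 against control over both lines (-0.53) and in ARID1A-/- #2 (-0.60), and HMGA1 (0.57) and IGF2BP1 (-0.46) between the kits.

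The ARID1A+/- library has no replicate, so its values were set beside the control library of the same kit with no test. HMGA1 had 203 RPKM in ARID1A+/- against 308 RPKM in control, a log2 ratio of -0.60, and LIN28B had 16.4 RPKM against 23.9 RPKM, a log2 ratio of -0.54. IGF2BP1 had 29.6 RPKM in ARID1A+/- against 26 RPKM in control, and IGF2BP3 had 18.4 RPKM against 15.5 RPKM, log2 ratios of 0.18 and 0.25. None of the 4 was past 2-fold, where 3.99% of all entries were more than 2-fold higher and 6.32% more than 2-fold lower. The exact 95% interval of the HMGA1 ratio, 0.645 to 0.672 times control, covers counting error only. The HMGA1 level in ARID1A+/- was within a log2 ratio of -0.09 of ARID1A-/- #1 and 0.02 of ARID1A-/- #2 in the same kit, and below both control libraries.

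HMGA1 and IGF2BP1 also differed between the 2 library kits, by about as much as HMGA1 differed from control. Over the 3 pairs of libraries, HMGA1 was higher in SMARTer than in KAPA libraries by a log2 fold change of 0.57 ± 0.10 (SE, edgeR adjusted p = 0.0239), in all 3 pairs. IGF2BP1 was lower in SMARTer libraries, at -0.46 ± 0.11 (SE, edgeR adjusted p = 0.0401), also in all 3 pairs. That made 2 of 4 genes called, against 13.3% of all entries (7.99% higher and 5.30% lower). LIN28B, at -0.22 ± 0.21 (edgeR adjusted p = 0.506), and IGF2BP3, at -0.11 ± 0.09 (edgeR adjusted p = 0.451), were not called. For LIN28B the pairs disagreed: the SMARTer minus KAPA difference in log2 RPKM was -1.01 in ARID1A-/- #1, 0.28 in ARID1A-/- #2 and -0.43 in control. Both kit calls were lost without either control library or either ARID1A-/- #2 library, with edgeR adjusted p between 0.11 and 0.143 for HMGA1 and between 0.0967 and 0.189 for IGF2BP1. The IGF2BP1 call was also lost without the SMARTer library of ARID1A-/- #1 (edgeR adjusted p = 0.0621). The kit is tied to the order of the libraries, first and repeat, so chemistry and time of preparation cannot be told apart.

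**Figure D3:**
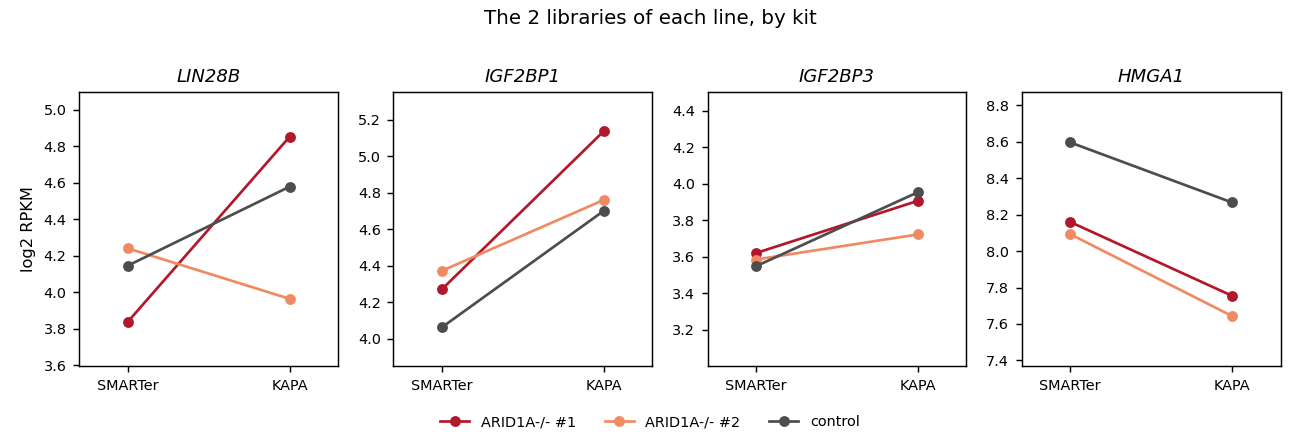
The SMARTer and KAPA libraries of each line for the 4 tested genes, in log2 RPKM (y axis, the same span of 1.5 in every panel); each line joins the 2 libraries of a group. The HMGA1 lines run downward in parallel with control on top, the IGF2BP1 lines run upward, and the LIN28B lines cross.

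IGF2BP1 was the only one of the 6 genes whose log2(RPKM + 1) spanned at least 1 over the libraries, and its nearest neighbours in pattern were HDX, GPR19 and TSPAN12. Their root mean square differences from the centred IGF2BP1 profile were 0.07, 0.07 and 0.08, with Pearson's r of 0.98, 0.97 and 0.97 over 7 libraries, among 11368 genes searched. HDX, for example, had 1.45 and 3.03 RPKM in ARID1A-/- #1, 1.58 and 2.45 RPKM in ARID1A-/- #2, 2.24 RPKM in ARID1A+/- and 1.08 and 2.26 RPKM in control. The points are 3 SMARTer and 4 KAPA libraries, which also differ in depth, so a shared kit difference enters these likenesses, and they describe the 7 libraries only. Between the genes themselves r was -0.81 for IGF2BP1 and HMGA1, 0.77 for IGF2BP1 and IGF2BP3 and -0.01 for LIN28B and HMGA1.

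Most genes that make or carry out let-7 regulation were expressed, and none was called over both lines with edgeR. LIN28A, the paralogue of LIN28B, had at most 3 counts and TRIM71, a let-7 target of stem cells, at most 4 counts in any library, so LIN28B was the expressed LIN28 form. Of 15 tested genes for let-7 processing and action (DROSHA, DGCR8, XPO5, DICER1, the uridylyl transferases, the nuclease DIS3L2, AGO and TNRC6 genes), 0 were called over both lines with edgeR, 2 had an unadjusted p under 0.05, DESeq2 called 1, limma 0 and the fits with 1 library left out 0 to 1. Beside these counts and that of the LIN28B partners below, edgeR called 14.2% of all entries over both lines. The median log2 fold change of the list was -0.00, against 0.02 over all entries. DICER1, which cuts the let-7 hairpin, had 20.1 and 36.2 RPKM in ARID1A-/- #1 and 16.6 and 23.9 RPKM in ARID1A-/- #2, against 14.7 and 17.1 RPKM in control. It rose in ARID1A-/- #1, by 0.77 ± 0.16 on the log2 scale (SE, edgeR adjusted p = 0.0278), and was not called in ARID1A-/- #2, at 0.28 ± 0.16 (edgeR adjusted p = 0.29) or over both lines, at 0.53 ± 0.14 (edgeR adjusted p = 0.0556). The difference between the lines was not called either (edgeR adjusted p = 0.103). The ARID1A-/- #1 call was lost without the SMARTer control (edgeR adjusted p = 0.0515) or the KAPA control library (edgeR adjusted p = 0.172). MYCN, the oncogene that LIN28B is known to support, had 1435 and 1063 RPKM in ARID1A-/- #1 and 2343 and 606 RPKM in ARID1A-/- #2, against 3663 and 1226 RPKM in control, a log2 fold change of -0.78 ± 0.27 (edgeR adjusted p = 0.109). RAN and AURKA, the partners of LIN28B described in neuroblastoma, were not called, so that list had 0 of 3 with edgeR, DESeq2 and limma, and 1 at an unadjusted p under 0.05, with 0 to 1 risen and 0 to 1 fallen when 1 library was left out.

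Mature let-7 was not measured, since these libraries hold long RNA, but the transcripts that carry let-7 hairpins were. MIR100HG, the host of let-7a-2, rose: it had 4.15 and 4.23 RPKM in ARID1A-/- #1 and 7.35 and 5.15 RPKM in ARID1A-/- #2, against 1.73 and 1.67 RPKM in control, and 1.13 RPKM in ARID1A+/-. All 4 ARID1A-/- libraries were above both controls, and the log2 fold change was 1.57 ± 0.17 (SE, edgeR adjusted p = 0.00227). Of 13 alternatives 12 kept that call, and without the SMARTer control library the adjusted p was 0.0666. Of 7 tested host and precursor entries MIR100HG was the only one called with edgeR or limma, while DESeq2 called 2, and leaving out 1 library gave between 0 and 2. Over all entries edgeR called 4.64% higher and 9.57% lower in this comparison. The 7 entries include the short hairpin entries MIRLET7B, MIRLET7D and MIRLET7I, with at most 6 counts in any library. The SE of their log2 fold changes was 1.10, 0.79 and 1.02, so a change in them could hardly have been called. HUWE1, which carries let-7f-2 and miR-98, and WDR82, which carries let-7g, were not called (edgeR adjusted p = 0.0638 and 0.124). MIRLET7DHG, at 0.485 to 1.15 RPKM over the 7 libraries, was not called either (edgeR adjusted p = 0.552). MIRLET7BHG, the host of let-7b, was below the level needed for testing, with 0.527 and 0.627 RPKM in ARID1A-/- #1, 0.25 and 0.288 RPKM in ARID1A-/- #2 and 0.818 RPKM in ARID1A+/-, against 0.534 and 0.197 RPKM in control, and its groups overlapped. LINC00478 (MIR99AHG in RefSeq), which carries let-7c, was also below that level. It had counts of 26 and 21 in ARID1A-/- #1 and 3 and 0 in ARID1A-/- #2, against 129 and 78 in control, and 121 in ARID1A+/-. Scaled to library totals this was 0.211 times control in ARID1A-/- #1, with an exact 95% interval of 0.15 to 0.291. In ARID1A-/- #2 it was 0.0142 times control, with an exact 95% interval of 0.0029 to 0.042. Both intervals cover counting error only, and LINC00478 and MIRLET7BHG were named after their values were seen.

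The hairpins carried by MIR100HG and LINC00478 are shown because LIN28 proteins are known to grip let-7 precursors through a GGAG element near the 3′ arm. Every GGAG after the mature 5′ arm is in capitals, let-7b is shown as a hairpin without one, and 9 of 12 hairpins in the RefSeq table held at least 1. The capitals mark letters wherever they occur: of the 2 in MIRLET7C, the last stands at the far 3′ end of the hairpin, away from the element described.
MIRLET7A2 (chromosome 11): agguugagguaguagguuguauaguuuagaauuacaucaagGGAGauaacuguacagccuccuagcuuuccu
MIRLET7C (chromosome 21): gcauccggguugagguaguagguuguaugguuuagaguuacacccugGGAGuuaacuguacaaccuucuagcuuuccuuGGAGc
MIRLET7B (chromosome 22): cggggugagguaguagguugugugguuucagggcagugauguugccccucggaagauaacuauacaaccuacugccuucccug

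The share of called genes with a let-7 match in the 3′ UTR is set beside that of genes without one, for the ARID1A-/- lines against control. Leaving out the 6 genes, 1124 tested genes had at least 1 match, of which 52 rose, or 4.63%, and 128 fell, or 11.4%, with a median log2 fold change of 0.03. Among 10217 tested genes with no match, 5.31% rose and 10% fell, with a median of 0.02. Of 128 tested genes with at least 2 matches, 6 rose and 18 fell, with a median of -0.02.

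Of 26 tested genes on a list of published let-7 targets, 3 rose and 7 fell over both lines with edgeR, where 4.64% of all entries were called higher and 9.57% lower. The median log2 fold change was -0.11, against 0.02 over all entries. Leaving out 1 library moved these counts between 0 and 6 risen and 0 and 8 fallen, while DESeq2 called 4 risen and 6 fallen and limma 2 and 2. The 3 risen with edgeR were CCND1, COIL and THBS1, with log2 fold changes of 0.47, 0.42 and 2.75 (edgeR adjusted p = 0.037, 0.0358 and 0.0315). All 3 calls were lost without the kit term and when either control library was left out. IRS2, an adaptor of the insulin receptor, had 1.11 and 0.664 RPKM in ARID1A-/- #1 and 5.04 and 2.01 RPKM in ARID1A-/- #2, against 6.37 and 2.26 RPKM in control. Its log2 fold change over both lines was -1.23 ± 0.17 (SE, edgeR adjusted p = 0.00548), although ARID1A-/- #2 alone was not called, at -0.30 ± 0.20 (edgeR adjusted p = 0.35). Without the SMARTer control library, IRS2 over both lines was not called, at -1.01 (edgeR adjusted p = 0.136), and its highest adjusted p over 13 alternatives was 0.303. SALL4, a stem cell transcription factor, had 2.79 and 4.18 RPKM in ARID1A-/- #1 and 2.32 and 3.06 RPKM in ARID1A-/- #2, against 3.99 and 7.42 RPKM in control, and its log2 fold change was -0.87 ± 0.16 (edgeR adjusted p = 0.0146). The oncogene MYC and the microtubule-severing gene FIGN also fell, with log2 fold changes of -1.34 ± 0.25 and -1.06 ± 0.20 (edgeR adjusted p = 0.018 and 0.0192). MYC was low throughout, with 0.354 and 0.22 RPKM in ARID1A-/- #1 and 0.656 and 0.253 RPKM in ARID1A-/- #2, against 1.29 and 0.547 RPKM in control. Its groups overlapped, and limma did not call it. The SALL4 call ended without the SMARTer control, the KAPA control or the KAPA library of ARID1A-/- #2 (edgeR adjusted p = 0.0853, 0.216 and 0.0532), and the MYC call ended without the same 3 libraries (edgeR adjusted p = 0.239, 0.0991 and 0.0532). FIGN was not called without the SMARTer control library (edgeR adjusted p = 0.238).

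Among 9 tested mRNAs known to be bound by IGF2BP proteins, 0 rose and 2 fell over both lines with edgeR, MYC and ABCB1, where 4.64% of all entries were called higher and 9.57% lower. DESeq2 called 1 risen and 2 fallen and limma 0 and 1, and leaving out 1 library gave 0 to 1 risen and 1 to 2 fallen. The median log2 fold change was 0.05, against 0.02 over all entries. ABCB1 encodes the multidrug efflux pump and its mRNA is a known IGF2BP1 client. It had 0.0512 and 0.0399 RPKM in ARID1A-/- #1 and 0.0469 and 0.0661 RPKM in ARID1A-/- #2, against 4.49 and 21.7 RPKM in control, and 10.4 RPKM in ARID1A+/-. ABCB1 was called in all 13 alternatives, with a log2 fold change of -7.70 ± 0.40 (SE, edgeR adjusted p = 0.000175) that ranged from -8.71 to -3.41. ACTB, the cytoskeletal actin, was not called, at 0.45 ± 0.14 (edgeR adjusted p = 0.0872). IGF2, the fetal growth factor whose mRNA gave the family its name, split by line, and it was named after its values were seen. It had 14 and 44.5 RPKM in ARID1A-/- #1 and 0.968 and 4.57 RPKM in ARID1A-/- #2, against 14.1 and 9.76 RPKM in control, with 75.1 RPKM in ARID1A+/-. The difference between the lines was 3.50 ± 0.63 on the log2 scale (edgeR adjusted p = 0.0162), while IGF2BP1 differed by 0.18 and IGF2BP3 by 0.15 in the same comparison.

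Of 6 other tested oncofetal genes, 0 rose and 3 fell over both lines with edgeR, where 4.64% of all entries were called higher and 9.57% lower. The median log2 fold change was -0.86, against 0.02 over all entries. DESeq2 also called 0 risen and 3 fallen, and limma 0 and 2. The 3 were the imprinted pair DLK1 and MEG3 and again SALL4. In ARID1A-/- #1 alone, edgeR called 1 risen, the fetal proteoglycan GPC3, and 0 fallen, against 4.75% and 8.27% of all entries. For ARID1A-/- #2 alone it called 0 risen and 4 fallen, those 3 and IGF2, against 5.47% and 8.52%. In ARID1A-/- #1, DLK1, MEG3 and SALL4 had log2 fold changes of -0.54, -0.34 and -0.67 (edgeR adjusted p = 0.0996, 0.329 and 0.0602). DLK1, a fetal Notch-like ligand, had 18.3 and 11.4 RPKM in ARID1A-/- #1 and 9.74 and 7.81 RPKM in ARID1A-/- #2, against 22.5 and 20 RPKM in control. All 4 ARID1A-/- libraries lay below both controls, and the log2 fold change was -0.93 ± 0.15 (SE, edgeR adjusted p = 0.0105), a call lost without the SMARTer control (edgeR adjusted p = 0.0827) or the KAPA control library (edgeR adjusted p = 0.138). MEG3 was lower by a log2 fold change of -0.85 (edgeR adjusted p = 0.0261), although its groups overlapped, and without the SMARTer control library this was -0.45 (edgeR adjusted p = 0.204), and without the SMARTer library of ARID1A-/- #2 -0.74 (edgeR adjusted p = 0.0562). PEG10, a retrotransposon-derived imprinted gene, was not called, at 0.39 ± 0.18 (edgeR adjusted p = 0.217). Leaving out 1 library gave 0 to 1 risen and 0 to 3 fallen genes of the 6. AFP had no more than 0.00985 RPKM in any library.

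**Figure D4:**
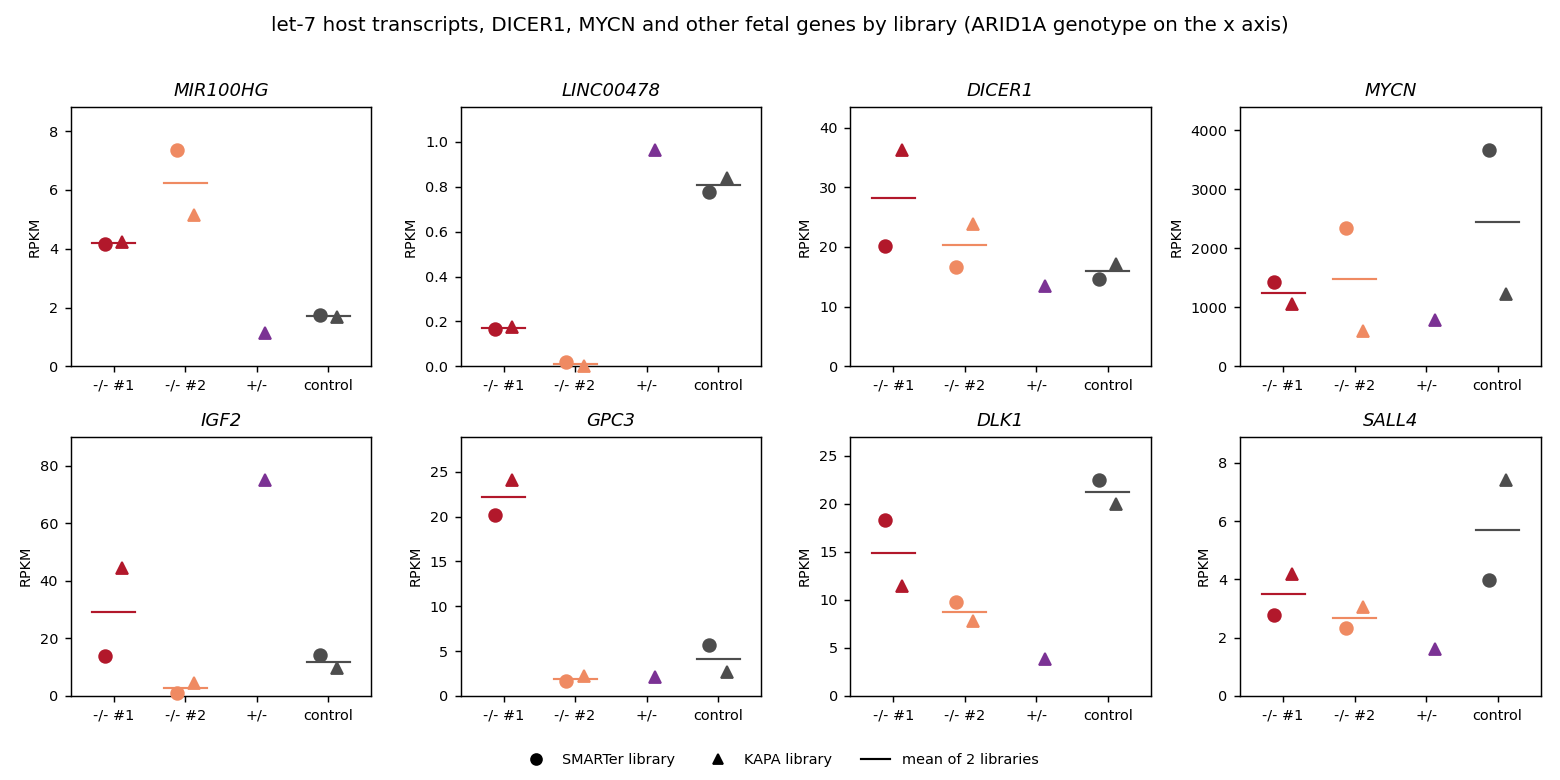
RPKM (y axis) of 2 let-7 host transcripts, DICER1, MYCN and 4 fetal genes in the 7 libraries; circles are SMARTer and triangles KAPA libraries, and lines are means of 2 libraries. MIR100HG is at 4.15 to 7.35 RPKM in the ARID1A-/- libraries against 1.73 and 1.67 RPKM in control, LINC00478 is lower in both ARID1A-/- lines, and IGF2 and GPC3 part ARID1A-/- #1 from ARID1A-/- #2.

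Of 9 tested genes linked to HMGA proteins in published work, 1 rose and 2 fell over both lines with edgeR, where 4.64% of all entries were called higher and 9.57% lower. The median log2 fold change was 0.33, against 0.02 over all entries. DESeq2 called 1 risen and 3 fallen and limma 1 and 1, and leaving out 1 library gave 0 to 5 risen and 0 to 3 fallen. SNAI2, a transcription factor of the epithelial-mesenchymal transition, had 13.1 and 6.01 RPKM in ARID1A-/- #1 and 7.3 and 10.5 RPKM in ARID1A-/- #2, against 3.55 and 2.06 RPKM in control, and rose, with a log2 fold change of 1.73 ± 0.37 (edgeR adjusted p = 0.0275), which was lost without the SMARTer control (edgeR adjusted p = 0.174) or the KAPA control library (edgeR adjusted p = 0.206). E2F1, a cell cycle transcription factor, had a log2 fold change of -0.61 (edgeR adjusted p = 0.0173) and was not called without the SMARTer control, the KAPA control or the SMARTer library of ARID1A-/- #2 (edgeR adjusted p = 0.15, 0.134 and 0.0615). TET1, an oxidase of methylated cytosine, stood at -0.50 (edgeR adjusted p = 0.0389) and was not called without either control library or either library of ARID1A-/- #2 (edgeR adjusted p between 0.0805 and 0.307).

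HMGA1 belongs to a wider class of high mobility group genes. Of 9 tested HMGB, HMGN and HMG20 genes, 0 were called over both lines with edgeR, DESeq2 or limma, where edgeR called 14.2% of all entries. At an unadjusted edgeR p under 0.05 there were also 0, and the median log2 fold change was 0.11 against 0.02 over all entries. Leaving out 1 library gave 0 to 2 risen and 0 fallen with edgeR. HMGB2, for example, had 584 and 509 RPKM in ARID1A-/- #1 and 347 and 506 RPKM in ARID1A-/- #2, against 339 and 424 RPKM in control.

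Of the coding genes nearest to the 4 tested genes on their chromosomes, those that could be tested were not called over both lines. NUDT3, beside HMGA1, had a log2 fold change of -0.05 ± 0.10 (edgeR adjusted p = 0.793), HACE1, beside LIN28B, -0.20 ± 0.15 (edgeR adjusted p = 0.437), SNF8, beside IGF2BP1, -0.02 ± 0.12 (edgeR adjusted p = 0.931) and TRA2A, beside IGF2BP3, 0.24 ± 0.10 (edgeR adjusted p = 0.163). HMGA1 has processed copies elsewhere in the genome, and the 1 such entry in the tables, HMGA1P7, had at most 0.0374 RPKM in any library.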

How the data were processed

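RNA sequencing of 7 libraries (single-end reads of 75 bases) was used. The submitters' processing notes name HISAT2 2.1.0 and hg19. No source names the counting program or its strand setting, and per the labels both removal of ribosomal RNA and polyadenylated RNA are named. The deposited tables give the authors' read counts per gene and the authors' RPKM values, which equalled the count per kilobase scaled to the library's counted reads to within 0.000501%. Samples were grouped by their labelled genotype.

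Counts were tested with edgeR 4.0.16 (R 4.3.3; TMM scaling, quasi-likelihood test, Benjamini-Hochberg adjustment over 14711 entries with a mean of at least 0.5 RPKM, threshold 0.05) in a model with group and kit over 6 libraries. The kit pairs the libraries: the SMARTer minus KAPA differences of the 3 groups correlated at 0.45 to 0.63 over genes. RPKM are levels, with no test; log2 values are log2 fold changes of the fit unless called log2 RPKM. The ARID1A+/- library entered no test. Alternatives used DESeq2 1.42.0, limma 3.58.1 on log2(RPKM + 1) and log2(RPKM + 0.1), other scalings and filters, no kit term, and each library left out.

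The members and all gene lists were chosen with earlier results of these data known. Named were all 6 members, of each list up to 4 genes with the smallest p over both lines (some are not reported here), and the 3 nearest genes in pattern. HAND2, GATA3, TH, COL1A1, COL1A2, DCN, LUM, IGF2, GPC3, the let-7 hosts below the testing level, AFP, LIN28A, TRIM71, XPO5 and the genes listed as differing between the lines were named after their values were seen. The same holds for MIRLET7B, MIRLET7D, MIRLET7I, CCND1, COIL and THBS1. The comparisons with control share the same 2 control libraries. Replicate libraries differed by more than sampling noise. Sequences are from RefSeq GRCh38.p14 and GENCODE 29 and were matched by symbol.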

Additional observations from a re-analysis of the deposited data

Results flagged for a closer look

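None of the 4 tested oncofetal genes was called between the mutant lines, but other genes of the surrounding lists were, of which 8 are given here, by the edgeR test of ARID1A-/- #1 minus ARID1A-/- #2 (adjusted p under 0.05, n = 2 libraries each). The fetal growth factor IGF2 was higher in ARID1A-/- #1 by 3.50 ± 0.63 on the log2 scale (SE), and the fetal proteoglycan GPC3 by 3.57 ± 0.37, with 20.2 and 24.1 RPKM in ARID1A-/- #1 and 1.65 and 2.2 RPKM in ARID1A-/- #2. GPC3 was called in all 13 alternatives and IGF2 in 12. The imprinted genes DLK1 and MEG3 were higher in ARID1A-/- #1, by 0.78 and 1.01, in 7 and 9 of 13 alternatives. The DLK1 call was lost without any 1 library but the KAPA library of ARID1A-/- #1 (edgeR adjusted p between 0.065 and 0.217), and the MEG3 call without either library of ARID1A-/- #2 (edgeR adjusted p = 0.137 and 0.0623). The transcription factor SNAI1 was higher in ARID1A-/- #1 by 1.85, a call lost without the SMARTer control or the KAPA library of ARID1A-/- #2 (edgeR adjusted p = 0.0543 and 0.0556). The insulin receptor adaptor IRS2 was lower in ARID1A-/- #1, at -1.85, a call kept in 12 of 13 alternatives. HMGN4, a nucleosome-binding protein, stood at -0.81, and was not called without the SMARTer library of ARID1A-/- #2 (edgeR adjusted p = 0.138). XPO5, the exporter of microRNA precursors, stood at -0.52, with 36.8 and 53.5 RPKM in ARID1A-/- #1 and 60.1 and 71.6 RPKM in ARID1A-/- #2, a call lost without any 1 of the 6 libraries (edgeR adjusted p between 0.0567 and 0.502). The summed fibroblast marker level was 198 and 222 RPKM in ARID1A-/- #1 and 48.2 and 43.2 RPKM in ARID1A-/- #2, most of it COL1A1 in ARID1A-/- #1, and its part in these differences was not tested.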

How the results depend on the processing

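Directions of HMGA1 and IGF2BP1 over both lines held in all 14 alternatives, at -0.60 to -0.49 and 0.16 to 0.31 on the log2 scale, and IGF2BP1 was called in none.

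Without the replicate block (the kit term that pairs the libraries), HMGA1 over both lines kept -0.53 but was not called (edgeR adjusted p = 0.403), as in ARID1A-/- #2, at -0.59 (edgeR adjusted p = 0.418). Without the block 0 members were called in any comparison with control, and 592, 475, 519 and 404 of all genes were called over both lines, in ARID1A-/- #1, in ARID1A-/- #2 and between the lines, against 2090, 1916, 2059 and 1885 with it. Members called in ARID1A-/- #1 numbered 1 with upper quartile scaling, DESeq2 or a minimum of 1 RPKM. With no filter on low values 3147 genes were called over both lines.

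Leaving out each library gave 0 to 1 members called over both lines, with 348 to 3570 of all genes, 436 to 3028 in ARID1A-/- #1, 0 to 1 members and 408 to 3738 genes in ARID1A-/- #2, 772 to 2407 genes between the lines, and 0 to 2 members and 0 to 2888 genes between the kits. The 2 fits with 0 genes between the kits are those without a control library, in which control is represented by 1 library assumed to vary like the others. LIN28B over both lines ranged from -0.40 to 0.07 and IGF2BP3 from -0.17 to 0.03, changing sign.

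In single lines the sign of LIN28B was not settled. In ARID1A-/- #1 it was -0.01 and -0.02 with limma and -0.45 to 0.41 with a library left out, in ARID1A-/- #2 -0.79 to 0.16, between the lines -0.17 to 0.78 and between the kits -0.54 to 0.07. IGF2BP3 in ARID1A-/- #1 ranged from -0.10 to 0.11 and IGF2BP1 in ARID1A-/- #2 from -0.02 to 0.29. For none of these was the cause tested. With limma, whose RPKM carry no TMM scaling, the median of all genes between the kits shifted to -0.12 and -0.15. Depth limits only IGF2BP2 and HMGA2, where 3 counts correspond to 0.00464 to 0.0322 RPKM.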
